A study of Mus musculus with 16 samples.

Results

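The 28 genes described here are those of cholesterol synthesis and its control by sterol regulatory element-binding proteins (SREBPs), measured by bulk RNA-seq in a coculture of mouse sympathetic ganglia and pancreatic stellate cells. Members were found by gene symbol, and each of the 28 matched 1 protein-coding row in both deposited tables, out of 21684 protein-coding genes and 56941 genes in all. The pathway was chosen because an earlier look at these libraries had found cholesterol synthesis genes lower in stellate cells cocultured with ganglia, so the members were selected on the values of PSC+SCG against PSC, which are given below as a description that supports nothing. The nerve libraries were not part of that choice, and their comparisons are tested. Earlier results of these data were known, however, when the tests were chosen.

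The PSC libraries hold mPSC1, an immortalized stellate cell line from mouse pancreas, cultured alone (PSC, n = 3) or across an insert from ganglia (PSC+SCG, n = 3). The nerve libraries hold superior cervical ganglia (SCG), sympathetic ganglia of the neck, explanted from C57BL/6J pups at postnatal day 1 to 4 and cultured alone (n = 3), with NIH 3T3 embryonic fibroblasts (SCG+MEF, n = 3) or with mPSC1 cells (SCG+PSC, n = 4). Cocultures joined 10000 cells to 8 to 13 explants for 70 h, with no contact between the compartments, and RNA came from 1 compartment only. Each fibroblast group rests on a single line, each ganglion library pools several explants, and the medium held fetal bovine serum, itself a source of sterol.

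Cells build cholesterol from acetyl-CoA through mevalonate, the isoprenoid diphosphates, squalene and lanosterol. When membrane sterol is low, SCAP escorts the SREBP precursors from the endoplasmic reticulum to the Golgi, where they are cut to release transcription factors that bind sterol regulatory elements of the synthesis genes. When sterol is plentiful, INSIG proteins hold SCAP in the endoplasmic reticulum. Neurons and their glia both express this pathway, and the isoprenoid branch also supplies the lipids that anchor small GTPases in membranes.

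The regulatory sequence of 3 members is shown because each carries a result. Hmgcs1, the cytosolic synthase that makes HMG-CoA, was the only one of the 23 members with a promoter entry whose window held the searched sterol regulatory element. Idi1, the isomerase of isopentenyl diphosphate, had the largest difference in SCG+PSC, and Insig1 the largest in PSC+SCG; these 2 were picked after their values were seen. The RefSeq windows below (GRCm38.p6, 250 bases upstream of the start, 5′ to 3′ on the gene's strand) lie on the plus strand at chr13:119690101-119690350 for Hmgcs1, chr13:8885356-8885605 for Idi1 and chr5:28071162-28071411 for Insig1. Capitals mark every match to a motif named in the next paragraph.
Hmgcs1: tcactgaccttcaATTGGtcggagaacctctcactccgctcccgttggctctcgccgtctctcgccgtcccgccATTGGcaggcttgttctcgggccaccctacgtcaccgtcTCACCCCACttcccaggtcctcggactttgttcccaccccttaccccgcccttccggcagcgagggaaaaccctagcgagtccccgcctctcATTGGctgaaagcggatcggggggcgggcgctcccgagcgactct
Idi1: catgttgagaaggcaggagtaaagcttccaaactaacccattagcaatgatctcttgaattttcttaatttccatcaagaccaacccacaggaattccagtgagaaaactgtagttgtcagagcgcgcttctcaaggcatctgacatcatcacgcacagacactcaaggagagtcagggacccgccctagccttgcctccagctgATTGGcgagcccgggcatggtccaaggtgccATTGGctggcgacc
Insig1: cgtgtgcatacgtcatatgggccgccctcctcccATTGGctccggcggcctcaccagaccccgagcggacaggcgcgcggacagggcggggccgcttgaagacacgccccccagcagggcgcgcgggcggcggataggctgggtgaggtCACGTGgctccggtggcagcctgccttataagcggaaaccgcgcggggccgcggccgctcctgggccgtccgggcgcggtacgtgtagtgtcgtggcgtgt

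The 3 motifs were searched on both strands of the 250 upstream bases, and none of the matches overlapped in these windows. RefSeq promoters were found for 23 of the 28 members, with 31 windows among them, and for 32851 windows in all; Fdps, Fdft1, Sqle, Stard4 and Npc1 had no entry. The sterol regulatory element TCACNCCAC was present in 1 of the 31 windows (3.23%), that of Hmgcs1, from 137 to 129 bases before the start, and in 1.05% of all windows. CCAAT, the box bound by NF-Y, was present in 22 of the 31 (71%) and in 33.8% of all windows; 3 copies lay upstream of Hmgcs1, 2 upstream of Idi1 and 1 upstream of Insig1. The E-box CACGTG was found in 5 of the 31 (16.1%) and in 6.02% of all windows, and Insig1 held 1 copy. These matches are a description of letters in a window and say nothing of binding. Each motif was searched as a fixed string, so variant sites and sites outside the 250 bases were not counted. A window without a match is thus not shown to lack a sterol regulatory element.

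Every member was detected in all 16 libraries. Reads were recovered from the normalized counts of 14 libraries, with 31900689 to 41632381 reads on genes. Levels between genes were compared per kilobase of summed exon length. That length joins the exons of all annotated transcripts, used or not, so the order of genes depends partly on the annotation. In PSC alone the order began with Srebf2 at 1719 normalized counts per kb, the farnesyl diphosphate synthase Fdps at 1646 and the lanosterol demethylase Cyp51 at 1449, and these neighbours overlapped. In SCG alone Hmgcs1 came first at 2037 per kb, above every library of the next gene, Fdps, at 1051. Tm7sf2, a sterol reductase, was the lowest in PSC at 38.7 per kb. Its exons share 532 bases with Vps51 on the same strand, and the counting mode used in the study leaves reads that fall on more than 1 gene uncounted.

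In stellate cells, most genes of the pathway were lower in coculture with ganglia, with 1 pair of libraries nearly level. Of the 28 members, 23 were lower and 5 higher in PSC+SCG than in PSC. The median log2 difference was -0.31 over the members and 0.01 over the 14541 protein-coding genes tested. It was -0.05 between the replicates 1, -0.30 between the replicates 2 and -0.50 between the replicates 3. In bulk RNA, fewer cells of a type and less RNA per cell cannot be told apart. This holds for subsets of this line and for the several cell types of the ganglia below. None of the 28 passed the threshold, which required a log2 difference of 0.5 or more in size and an adjusted p no higher than 0.05, as did 0% of all protein-coding genes. With the replicate number as a block 3 members passed, beside 0.523% of all genes. Because this contrast selected the members, these counts are no test of them and nothing is read from them.

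**Figure D1:**
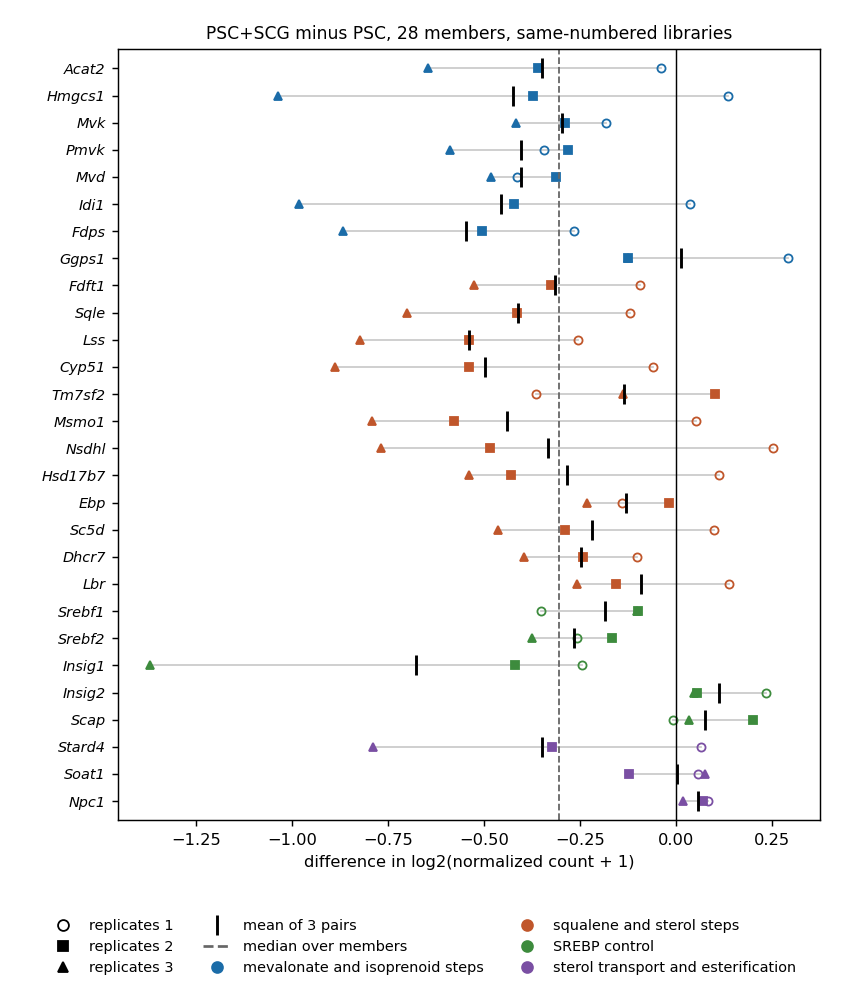
Difference between PSC+SCG and PSC libraries of the same replicate number, in log2(normalized count + 1), for the 28 members coloured by role. Open circles, squares and triangles are replicates 1, 2 and 3, black bars are means and the dashed line is the median over members (-0.31); triangles lie farthest left for most synthesis genes and Insig1 reaches -1.37.

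The 8 mevalonate and isoprenoid enzymes had a median log2 difference of -0.40 in PSC+SCG, and 7 of the 8 were lower. Hmgcs1 had 4409.6, 5919 and 5340.4 normalized counts in PSC replicates 1, 2 and 3 and 4842, 4573 and 2606 in PSC+SCG replicates 1, 2 and 3. PSC+SCG replicate 3 was well under the rest, and replicate 1 was above its PSC partner. Idi1 had 1079.8, 1455 and 1389 normalized counts in PSC and 1108, 1085.4 and 703 in PSC+SCG, in the same order. Here too the replicates 1 were level and the replicates 3 far apart, and the groups overlapped by a narrow margin. Fdps, which makes farnesyl diphosphate for sterols, dolichol and prenylated proteins, had 6425, 10876.5 and 6852 in PSC and 5346, 7665 and 3760.4 in PSC+SCG. It was lower in all 3 pairs, while PSC+SCG replicate 2 stayed above PSC replicates 1 and 3.

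The remaining enzymes of this stretch had smaller differences. Acat2, the thiolase that starts the pathway, averaged 2726.5 ± 469.7 normalized counts (mean ± SD, n = 3) in PSC+SCG and 3465 ± 559.9 in PSC. The kinases Mvk and Pmvk had log2 differences of -0.30 and -0.40, and the decarboxylase Mvd had -0.40; all 3 were lower in every pair. Ggps1, whose product geranylgeranyl diphosphate leaves the sterol route for protein prenylation, had 1400.3 ± 270.1 in PSC+SCG and 1374 ± 125 in PSC, a log2 difference of 0.01.

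All 12 enzymes from squalene to cholesterol were lower in PSC+SCG, with a median log2 difference of -0.30. The squalene epoxidase Sqle had 6347.6, 8938 and 7771 normalized counts in PSC and 5838.5, 6712 and 4785 in PSC+SCG. Lanosterol synthase, Lss, had 3134, 5306 and 4022 in PSC and 2628, 3650.1 and 2275 in PSC+SCG. Both were lower in every pair with overlapping groups. Cyp51 had 7229.5, 9869.6 and 8708 in PSC and 6937, 6792 and 4703 in PSC+SCG. It was the 1 member with every PSC+SCG library below every PSC library, beside 1.47% of all genes, which is no test since this contrast selected the members. The methylsterol monooxygenase Msmo1 had 4326, 6980.4 and 5728 in PSC and 4486, 4677 and 3308 in PSC+SCG, with the replicates 1 again level.

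Among the other sterol enzymes, log2 differences were -0.32 for squalene synthase (Fdft1), -0.33 for the sterol dehydrogenase Nsdhl, -0.28 for the ketosterol reductase Hsd17b7, -0.25 for the terminal reductase Dhcr7 and -0.22 for the desaturase Sc5d. The sterol isomerase Ebp, the reductase Tm7sf2 and Lbr, a sterol reductase that also anchors chromatin at the nuclear envelope, had -0.13, -0.13 and -0.09. Summed over the 20 synthesis enzymes, PSC libraries held 58059, 83229 and 68681 normalized counts and PSC+SCG libraries 56196, 62919 and 43149, for replicates 1, 2 and 3. The PSC+SCG sum ran from 43149 to 62919 and overlapped the PSC range.

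**Figure D2:**
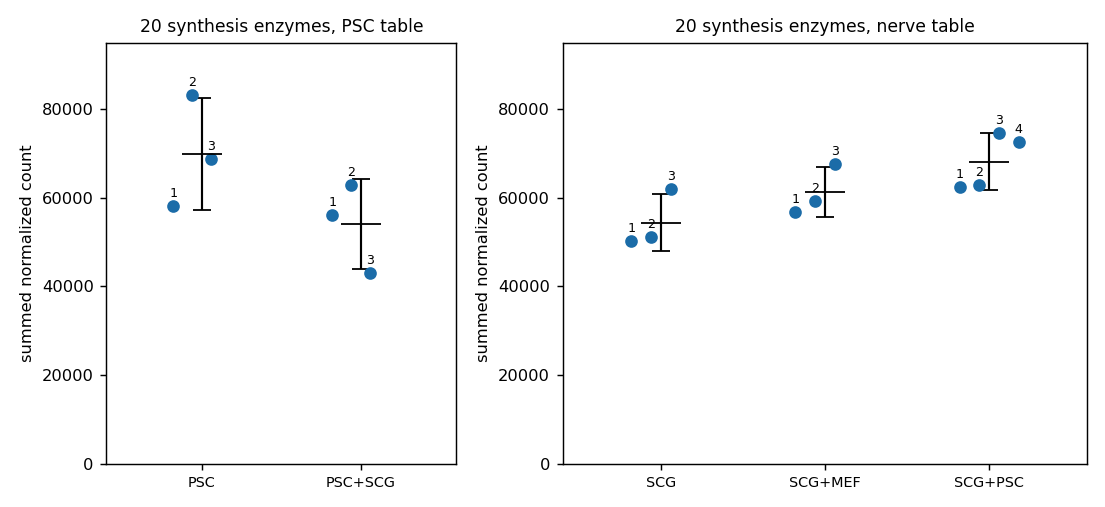
Summed normalized count of the 20 synthesis enzymes in each library, left for the PSC table and right for the nerve table, which were normalized separately. Points are libraries numbered by replicate and bars are mean ± SD; PSC replicate 2 (83229) and PSC+SCG replicate 3 (43149) mark the ends of the left panel, and on the right every SCG+PSC library (62499 or more) lies above every SCG library (61897 or less).

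The 5 SREBP control genes differed unequally in stellate cells. Insig1, itself a target of SREBP, had 4389, 6346 and 4504 normalized counts in PSC and 3708, 4742 and 1743.5 in PSC+SCG, for replicates 1, 2 and 3. Its mean log2 difference of -0.68 was the largest of the 28, and PSC+SCG replicate 3 was the lowest library by a wide margin. Its paralog Insig2 had 1255, 1224 and 1188 in PSC and 1476, 1271 and 1226.5 in PSC+SCG. Srebf1 had 6945, 8188 and 5666 in PSC and 5440.1, 7650.4 and 5285 in PSC+SCG, and Srebf2, the main regulator of the cholesterol genes, had 14649, 19133 and 14386.5 in PSC and 12253.5, 17057 and 11098 in PSC+SCG. Both transcription factor genes were lower in every pair, with overlapping groups. Scap had 5844.4, 5631 and 5694 in PSC and 5817, 6472 and 5833 in PSC+SCG and ran from 5631 to 6472 over the 6 libraries.

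Of the genes that move or store sterol, Stard4, a sterol transfer protein, had a log2 difference of -0.35. Soat1, the acyltransferase that esterifies cholesterol, had 0.0035, and Npc1, which exports cholesterol from lysosomes, had 0.06. Npc1 was slightly higher in all 3 pairs.

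Replicates weighed unequally on this pattern. PSC+SCG replicate 3 was the lowest of the 6 PSC libraries for 21 of the 28 members, and PSC replicate 2 was the highest for 22. Without PSC+SCG replicate 3 the median log2 difference was -0.14, with 22 members lower, and without PSC replicate 2 it was -0.16, with 23 lower. In all 3 pairs 14 of the 28 members were lower, beside 9.94% of all genes. In pairs 1 and 2 also 14 were lower, beside 24.1%, and in pairs 2 and 3 it was 23, beside 25.3%. Because this contrast selected the members, these counts beside the shares of all genes are no test of them. Fibroblast markers, summed over 7 genes including the collagens Col1a1 and Col3a1, stood at 395936 normalized counts in PSC+SCG replicate 3 and at 457022 in PSC replicate 3, the lowest values of the 6 libraries. The 8 sympathetic neuron markers summed to 2704 to 2796 in PSC+SCG and to 2016 to 2677 in PSC, with 3 of the 8 at 0 in every library and without overlap. In the separately normalized nerve table they reached 103617 or more. Most of the sum in the PSC libraries was Tubb3 and Hand2, which averaged 1997 and 736 in PSC+SCG and 1507 and 751 in PSC. Dbh, Slc6a2 and Stmn2 averaged 3.7 or less in either group. The 7 macrophage markers summed to 1487 to 1589 in PSC+SCG and to 1195 to 1323 in PSC, also without overlap, with 1 or 2 of the 7 at 0 in each library. Most of that sum was Cd14, a coreceptor for bacterial lipopolysaccharide, with a log2 difference of 0.33 and every PSC+SCG library above every PSC library. No neuron or macrophage marker that could be tested passed the threshold, with or without the block. Sums of the proliferation, endothelial and glial markers overlapped between the groups. The part of these shifts in the result was not tested.

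In ganglia the signs were mostly the opposite: cocultured with stellate cells, 23 of the 28 members were higher and 5 lower than in SCG alone. The median log2 difference between SCG+PSC replicates 1 to 3 and SCG was 0.27 over the members and 0.007 over the 15908 protein-coding genes tested. It was 0.28, 0.26 and 0.23 between the replicates 1, 2 and 3. By limma across all genes, none of the 28 passed the threshold (0.0189% of all genes did), and every member had an adjusted p of 1. At an unadjusted p under 0.05 there were 9 members, all higher, beside 4.14% of all genes, and edgeR and DESeq2 on recovered reads also gave 9 (3.8% and 4.21% of all genes). The count of 9 was 2 without SCG replicate 1 (4.07% of all genes) and 2 without SCG+PSC replicate 3 (3.18%). With the replicate number as a block, 1 member passed, Idi1 (limma adjusted p = 0.0118), beside 1.94% of all genes, and 7 members had an adjusted p of at most 0.05 at any fold, beside 2.21%. Idi1 did not pass with the block when both replicates 1 or both replicates 3 were left out.

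**Figure D3:**
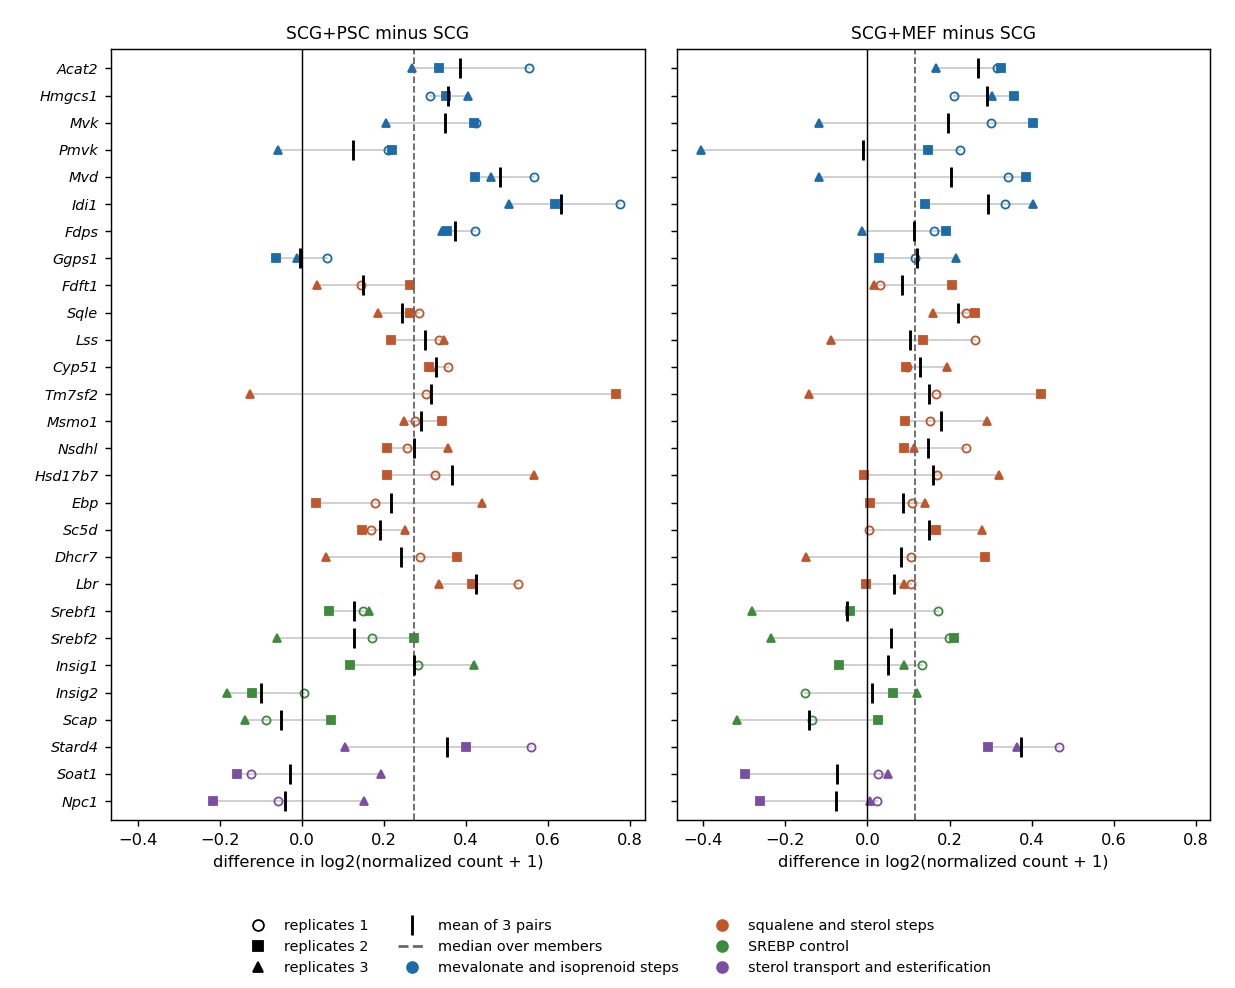
Difference from SCG libraries of the same replicate number, in log2(normalized count + 1), for the 28 members, with SCG+PSC on the left and SCG+MEF on the right. Symbols are as in the plot of PSC pairs; the dashed medians stand at 0.27 and 0.12, and Idi1 lies farthest right on the left panel.

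Idi1 lies at chr13:8935537-8942487 on the plus strand (GRCm39, GENCODE M39 annotation). It had 440.4, 596.5 and 602.5 normalized counts in SCG replicates 1, 2 and 3 and 755, 914 and 855 in SCG+PSC replicates 1, 2 and 3; SCG+PSC replicate 4, with no SCG partner, had 937. Every SCG+PSC library was above every SCG library. The log2 difference was 0.63 ± 0.18 (SE without the block, 95% interval 0.24 to 1.02), 1.55-fold. The promoter window printed above holds a pair of CCAAT boxes within 45 bases of the start. Downstream of Idi1 in the pathway, Fdps (chr3:89000888-89019213, minus strand) had 4672, 5019 and 5721 in SCG and 6261, 6411, 7244 and 6690.3 in SCG+PSC replicates 1 to 4. Its groups did not overlap and the log2 difference was 0.37 ± 0.11, with an adjusted p of 0.0224 with the block.

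The other steps from acetyl-CoA to isopentenyl diphosphate were higher by smaller amounts. Hmgcs1, whose promoter window held the sterol element, had 10379, 9322.5 and 12486 normalized counts in SCG and 12886, 11894, 16527 and 15972 in SCG+PSC, with SCG+PSC replicate 2 within the SCG range. Its log2 difference was 0.36 ± 0.16 (adjusted p with the block, 0.0224). Acat2 averaged 3741 ± 453.6 in SCG+PSC and 2882 ± 539.9 in SCG, a log2 difference of 0.39 ± 0.15 (blocked adjusted p = 0.0301). Mvd averaged 2088.5 ± 407 and 1495 ± 297, with 0.48 ± 0.17 (blocked adjusted p = 0.0468). Mvk had a log2 difference of 0.35 ± 0.12 with groups that did not overlap, and a blocked adjusted p of 0.147. Pmvk differed by 0.12 and Ggps1, on the branch to prenylation, by -0.004. Of these 8 enzymes, 6 were higher in all 3 pairs.

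All 12 sterol enzymes had higher means in SCG+PSC, with a median log2 difference of 0.28, and 11 of the 12 were higher in all 3 pairs. Lss (chr10:76367298-76392976, plus strand) had 2483, 2602 and 2692 normalized counts in SCG and 3128, 3024, 3425 and 3305 in SCG+PSC, without overlap, a log2 difference of 0.30 ± 0.11. Cyp51 had 2985, 3636 and 3862 in SCG and 3823, 4508, 4799.7 and 4946 in SCG+PSC; the blocked adjusted p was 0.0352 at a log2 difference of 0.33 ± 0.15. Sqle had 4106, 4108 and 5275 in SCG and 5006, 4929.7, 5996 and 6100.2 in SCG+PSC, so that the groups overlapped through SCG replicate 3. Msmo1 had 2568, 3153.5 and 3307 in SCG and 3111, 3998, 3930.1 and 4072 in SCG+PSC, with SCG+PSC replicate 1 under the other 3.

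Lbr had the largest log2 difference of the 12, 0.42 ± 0.21 (blocked adjusted p = 0.0296), with means of 1173 ± 259 in SCG+PSC and 876 ± 206.5 in SCG. Nsdhl and Hsd17b7 had log2 differences of 0.27 and 0.37 with groups that did not overlap. The rest ranged from 0.15 for Fdft1 through 0.19 for Sc5d, 0.22 for Ebp and 0.24 for Dhcr7 to 0.31 for Tm7sf2, whose replicates 3 were the 1 sterol-enzyme pair with the opposite sign. The 20 enzymes together summed to 50185, 51203 and 61897 normalized counts in SCG and to 62499, 62936, 74678 and 72595 in SCG+PSC.

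Of the SREBP control genes, Insig1 (chr5:28276315-28283668, plus strand) again had the largest difference. It had 1835, 2146 and 1783 normalized counts in SCG and 2231, 2326.5, 2383 and 2483 in SCG+PSC, without overlap, a log2 difference of 0.27 ± 0.11 and an unadjusted limma p of 0.0281 that did not hold after adjustment with or without the block (blocked adjusted p = 0.167). Insig2 had 1522, 1411 and 1748 in SCG and 1527, 1297.6, 1541.5 and 1551 in SCG+PSC. Scap had 3969, 3426.5 and 3765 in SCG and 3734.4, 3598, 3422 and 3402 in SCG+PSC, and for both genes the groups overlapped and the means were slightly lower in coculture. Srebf1 had 3276, 3479.8 and 2894.5 in SCG and 3632, 3644, 3244 and 2954 in SCG+PSC. Srebf2 had 9301, 7937.4 and 11048 in SCG and 10471, 9589, 10594 and 9881 in SCG+PSC. Log2 differences of the transcription factor genes were 0.13 (95% interval -0.23 to 0.48) and 0.13 (-0.16 to 0.42), so that neither a small rise nor a small fall could be told apart from no difference.

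Stard4 had a log2 difference of 0.35 ± 0.22, while Soat1 and Npc1 had -0.03 and -0.04, signs that changed when single libraries were left out. Over all 28 members, 20 were higher in all 3 pairs, beside 20.2% of all genes, and 7 had every SCG+PSC library of replicates 1 to 3 above every SCG library, beside 4.33%. These 7 were Mvk, Idi1, Fdps, Lss, Nsdhl, Hsd17b7 and Insig1.

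**Figure D4:**
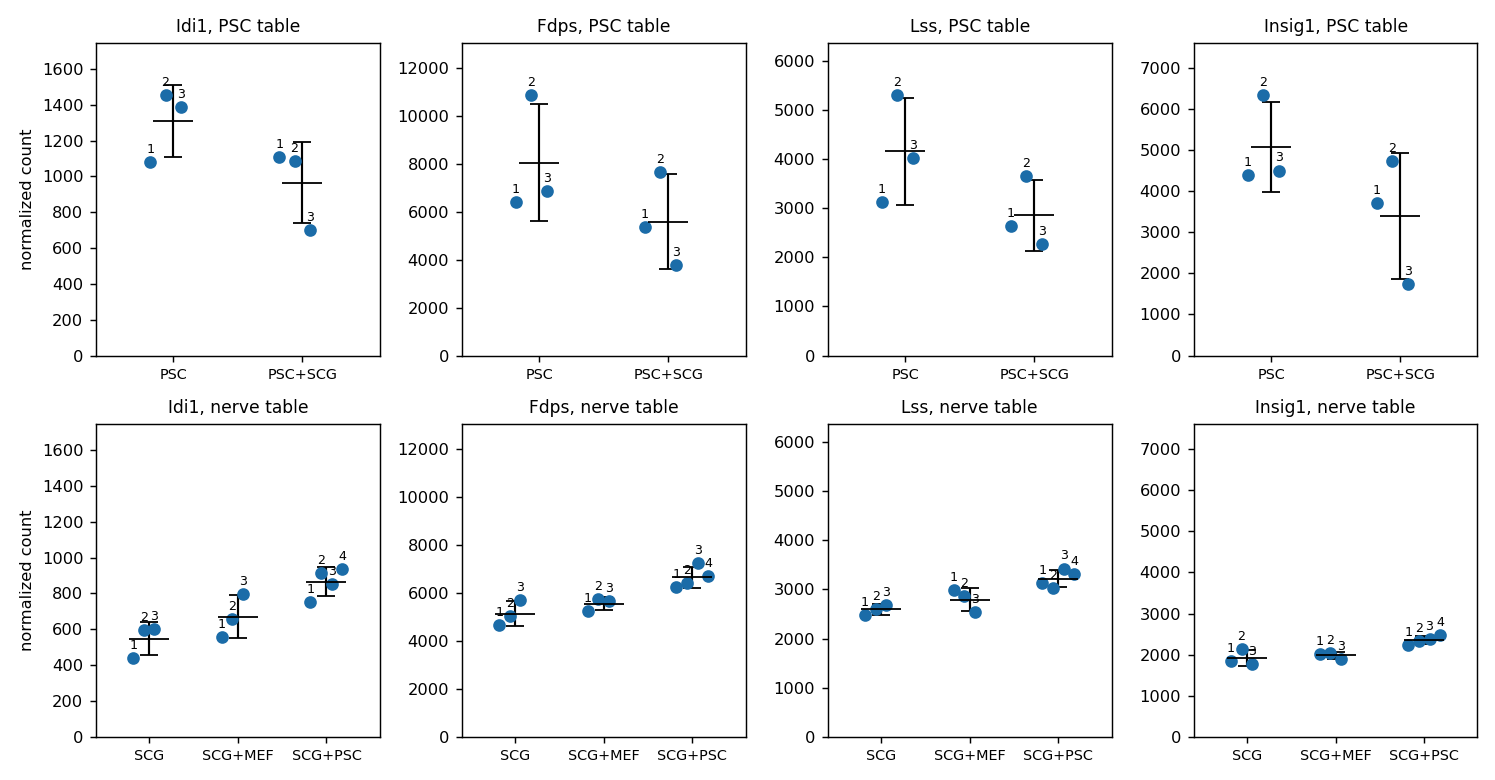
Normalized counts of Idi1, Fdps, Lss and Insig1 by library, with the PSC table above and the nerve table below, which were normalized separately. Points are libraries numbered by replicate and bars are mean ± SD; SCG+PSC libraries lie above SCG libraries for all 4 genes, while PSC and PSC+SCG libraries overlap.

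Other markers differed along with the pathway genes. Proliferation markers (6 genes, among them Mki67, a nuclear protein of cycling cells) all had higher means in SCG+PSC, and 5 of the 6 passed the threshold with the replicate block. Their sum was 5058, 17345 and 8337 normalized counts in SCG and 14687, 25038, 17025 and 17817 in SCG+PSC, none at 0. The 4 endothelial markers also had higher means, with sums of 1156 to 1744 in SCG and 1779 to 2617 in SCG+PSC, and 0 of the 4 passed with the block. The 8 neuron markers and the 8 markers of satellite glia and Schwann cells overlapped between the groups, at 103617 to 225662 against 121267 to 218483 for neurons and 59087 to 77603 against 62100 to 76419 for glia. Fibroblast markers summed to 208256 to 390833 in SCG and to 281765 to 390570 in SCG+PSC, with higher means in SCG+PSC for 6 of the 7 and a median log2 difference of 0.38. Lum, a proteoglycan of the collagen matrix, was the 1 fibroblast marker that passed with the block, at 0.65 (adjusted p = 0.0302). Macrophage markers summed to 11623 to 21087 in SCG and to 11826 to 16266 in SCG+PSC, and 5 of the 7 had lower means. Mrc1, the mannose receptor of resident macrophages, was the 1 of them that passed with the block, higher by 1.15 on the log2 scale (adjusted p = 0.00999), with every SCG+PSC library above every SCG library. The part of these shifts in the values of the pathway was not tested.

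Coculture with NIH 3T3 fibroblasts gave smaller differences of mostly the same sign. In SCG+MEF against SCG, 23 members were higher and 5 lower, with a median log2 difference of 0.12 against 0.03 over all genes. No member passed by limma, with 0.0189% of all genes past the threshold, or with the block (0.239%), and 0 members had an unadjusted p under 0.05, beside 2.44%. DESeq2 and edgeR on recovered reads gave 0 as well. Without SCG replicate 3 the median was 0.19, and 6 members then had an unadjusted p under 0.05, beside 3.16% of all genes; without SCG replicate 1 it was 0.07. Stard4 had the largest log2 difference at 0.37 ± 0.22, followed by Idi1 at 0.29 ± 0.18, while Fdps had 0.11 ± 0.11 and Lss 0.10 ± 0.11. Higher in all 3 pairs were 12 members, beside 17.4% of all genes, and 1, Nsdhl, had every SCG+MEF library above every SCG library, beside 2.95%. The 20 enzymes summed to 56802, 59355 and 67738 normalized counts.

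Markers also differed in SCG+MEF. Of the 7 fibroblast markers 6 had higher means than in SCG, with a median log2 difference of 0.41, and Lum at 1.29 and Dcn, another matrix proteoglycan, at 0.74 passed with the block (adjusted p = 0.00168 and 0.0371). Endothelial markers summed to 1761 to 1982 normalized counts, above every SCG library, and 0 of the 4 passed with the block. The glial fatty acid-binding protein gene Fabp7 had a log2 difference of -0.50 and passed with the block (adjusted p = 0.0338). Proliferation markers had a median of 0.13 and neuron markers of 0.17, and 0 of either passed. The part of these shifts in the values of the pathway was not tested.

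Whether stellate cells and 3T3 fibroblasts differed in their effect was tested directly. In SCG+PSC against SCG+MEF the median log2 difference was 0.13 over the members and -0.02 over all genes, and 25 members were higher. Beside this, the 6 proliferation markers had a median of 0.96, were higher in all 3 pairs, and 5 of the 6 passed with the block; Fabp7 at 0.56 and Lum at -0.64 also passed with it (adjusted p = 0.0219 and 0.0443). Their part in the values of the pathway was not tested. No member passed without the block (0% of all genes) or with it (1.14%), and at an unadjusted p under 0.05 there was 1, Fdps, beside 3.07%. Fdps had a log2 difference of 0.26 ± 0.11 (95% interval 0.01 to 0.51) with every SCG+PSC library above every SCG+MEF library. Idi1 had 0.34 ± 0.18 (-0.05 to 0.73), Insig1 0.22 ± 0.11 (-0.01 to 0.46) and Lbr, the largest, 0.36 ± 0.21 (-0.11 to 0.83). Higher in all 3 pairs were 17 members, beside 16.7% of all genes. Over SCG+PSC replicates 1 to 3, 4 members had groups without overlap, beside 3.33%: Mvk, Fdps, Lss and Insig1. For Mvk, SCG+PSC replicate 4 (1460.5 normalized counts) lay under SCG+MEF replicate 2 (1486.4). The 3 nerve comparisons share libraries, so their values are given side by side and not as separate evidence.

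Genes around the pathway were taken from 5 lists and set beside the members in SCG+PSC against SCG. None of their genes passed without the block. Of 13 genes of fatty acid synthesis, 12 had higher means, with a median log2 difference of 0.14. The desaturase Scd1, an SREBP1 and LXR target, had the largest at 0.44 ± 0.11 (blocked adjusted p = 0.0149, under the fold threshold), and malic enzyme Me1 had 0.28 ± 0.18. In SCG+MEF Scd1 differed by 0.44 ± 0.11, close to its value in SCG+PSC.

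Of 7 genes of the liver X receptors (LXRs), which respond to oxysterols, and of sterol efflux, 6 had lower means, with a median of -0.16. Nr1h3, which encodes LXR alpha, averaged 295 ± 67.8 normalized counts in SCG+PSC and 472 ± 173 in SCG, a log2 difference of -0.63 ± 0.28, and it was the 1 gene of the 5 lists that passed with the block (adjusted p = 0.0302). The exporter gene Abcg1 had -0.47 ± 0.29, lower in all 3 pairs. In stellate cells the same 7 genes had a median of 0.22 in PSC+SCG against PSC, with 5 higher, none past the threshold.

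The lists further from synthesis stayed close to 0. The medians were 0.04 over 14 genes of sterol uptake, transport and oxysterols, 0.02 over 11 genes of isoprenoid branches and -0.02 over 11 genes of SREBP processing and sterol-regulated degradation, and 0 genes passed with the block. Their largest log2 differences were -0.44 ± 0.51 for the cholesterol hydroxylase Ch25h and 0.30 ± 0.25 for the lipoprotein receptor Scarb1, 0.29 ± 0.19 for Pdss1 and 0.16 ± 0.14 for Fntb (ubiquinone synthesis and protein farnesylation), and 0.19 ± 0.27 for Paqr3 and 0.10 ± 0.15 for the protease Mbtps2, which cuts SREBP precursors.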

How the data were processed

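Libraries were made with a stranded mRNA kit and, per the labels and the study's methods, the authors aligned reads with STAR 2.7.10b to GRCm39 with the GENCODE M33 annotation and deposited counts divided by DESeq2 1.38.3 size factors (R 4.2.2), a signal that is not whole. The PSC and nerve tables were normalized separately, so every test was made within a table. The members, the gene lists and the tests were chosen with earlier results of these data known.

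limma 3.58.1 (R 4.3.3, trended empirical Bayes) was fitted to log2(normalized count + 1) over genes summing to at least 10, with Benjamini-Hochberg adjustment over all genes tested, and fold changes are on that scale. A call needed a log2 difference of 0.5 or more in size and an adjusted p no higher than 0.05. The nerve fit used SCG+PSC replicates 1 to 3. The study's methods used batch as a covariate, but no label ties a library to a batch. Same-numbered libraries deviated together, with correlations across genes of 0.30 to 0.55 in the PSC table and 0.17 to 0.51 in the nerve table. None was under 0.1. The fit with the replicate number as a block is therefore given beside the main fit. Each ± after a log2 difference is the SE without the block, also where a blocked adjusted p stands beside it. Labels do not say what a number marks, nor that libraries came from separate cultures, so p-values measure the spread between these libraries.

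Dividing normalized counts by the value of 1 read gave whole reads (within 0.1) in 14 of 16 libraries, with 31900689 to 41632381 reads on genes; edgeR 4.0.16 (quasi-likelihood) and DESeq2 1.42.0 were run on them as alternatives in the nerve table only. The other 2, PSC+SCG replicate 1 and SCG+PSC replicate 4, were not recovered. Gene positions and exon lengths came from GENCODE M39, promoters from RefSeq (GRCm38.p6). All 28 members and every other listed gene named were given by a rule fixed with the tests: all members, every-library values for the 8 with the largest PSC difference, for those called in a nerve comparison and for the SREBP control genes, and up to 2 genes for each other list. The 9 members past an unadjusted p were counted, and markers were named, after values were seen. The limma script was tested on simulated data.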

Additional observations from a re-analysis of the deposited data

Results flagged for a closer look

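Among the 4 SCG+PSC libraries, 3 members had 1 library far from the others, by the ratio of its gap to the whole range and past Dixon's critical value for 4 samples: Insig2 in replicate 2 (0.905, at 1298 normalized counts), Tm7sf2 in replicate 4 (0.899, at 432) and Msmo1 in replicate 1 (0.852, at 3111). Chance alone flags about 5% of groups, and 28 members were looked at.

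Over 12 members (Acat2, Mvk, Mvd, Fdps, Fdft1, Sqle, Lss, Cyp51, Ebp, Dhcr7, Srebf1 and Insig1) the sign was opposite in the compartments of the same coculture: lower in all 3 PSC pairs and higher in all 3 SCG pairs. Of 14127 protein-coding genes tested in both tables, 339 (2.4%) had this pattern. The difference itself was not tested, the tables were normalized separately, and the PSC side selected the members.

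SCG+PSC replicate 4, which entered no main comparison, lay above every SCG library for 18 of the 28 members, beside 20.2% of all protein-coding genes. With all 4 SCG+PSC libraries, 14 members had an unadjusted p under 0.05 by limma, beside 5.57% of all genes, and 0 passed the threshold.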

How the results depend on the processing

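Without the replicate block 0 members passed the threshold in any of the 4 comparisons. This held under each pseudocount and filter, under quantile normalization and when any 1 library was left out (0 to 0). In the nerve comparisons only, each choice of SCG+PSC libraries, a fit of only the groups compared, edgeR and DESeq2 were also run, and 0 members passed. With the replicate block, 3 members passed in PSC+SCG against PSC and 1 in SCG+PSC against SCG; 2 further alternatives were chosen after seeing the data. All 4 SCG+PSC libraries with the block gave 1. The block with both libraries of a number left out gave 0 to 3 in PSC+SCG against PSC and 0 to 1 in SCG+PSC against SCG, the 0 without replicates 3 in the first and without replicates 1 or 3 in the second; this fit keeps 2 pairs. The block changed no other member's call. The count of all genes passing rose with the block from 0 to 76 in PSC+SCG against PSC and from 3 to 309 in SCG+PSC against SCG, and was 55 by DESeq2 in the latter.

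The median log2 difference ranged from -0.45 to -0.14 in PSC+SCG against PSC when single libraries were left out, from 0.20 to 0.34 in SCG+PSC against SCG, from 0.07 to 0.19 in SCG+MEF against SCG and from 0.09 to 0.18 in SCG+PSC against SCG+MEF. In SCG+PSC against SCG, Ggps1 was 0.038 with all 4 SCG+PSC libraries and 0.024 with replicates 1, 2 and 4, against -0.0040 as reported. Leaving out 1 library gave -0.052 to 0.043 for Ggps1, -0.25 to 0.11 for Npc1 and -0.18 to 0.19 for Soat1. Over the 28 members, 11 of 588 values changed sign in this comparison, 23 of 588 in SCG+MEF against SCG and 20 of 588 in SCG+PSC against SCG+MEF.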
